A study of Mus musculus with 10 samples.

Results

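The fibroblasts of mammary tumours (CAF) were compared here with the fibroblasts of control mammary glands (COF). The comparison uses the 3 arrays titled CAF and the 3 titled COF, 6 of the 10 arrays of the study, and every gene with a probe set of its own. Where a gene had several probe sets the one with the highest mean over the 10 arrays stood for it, which left 12394 genes. The genes and gene groups described go beyond the fixed marker lists by which such cells are usually typed, and they include genes of the matrix.

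The study measured gene expression on single-colour Affymetrix mouse arrays in cells sorted from FVB/N mice. COF came from control glands of wild-type mice, and CAF from primary mammary tumours of mice with the genotype WAPCre-DNbcatn;HGF. The other 4 arrays held sorted tumour populations labelled CSC and TEC, 2 each, from mice of the same tumour genotype. They entered the test through the shared estimate of the spread and the choice of 1 probe set a gene, the one with the highest mean over all arrays. The WAP promoter is that of a milk protein gene and drives Cre in the secretory mammary epithelium, so the fibroblasts themselves are not the cells in which it is known to act. Age, the stage of the tumours, the surface markers used for sorting, whether cells of several mice were pooled and whether the arrays of a group came from separate mice are not given in the sources used here. Each p-value therefore measures only the spread between these samples, which may be technical. COF and CAF differ at once in host genotype, in the presence of a tumour and possibly in sorting yield, and these cannot be told apart.

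Fibroblasts make and remodel the connective tissue around the mammary ducts and signal to the epithelium, to vessels and to immune cells. In a tumour they are known to take up altered programmes, among them secretion of cytokines, contraction and matrix deposition. Fibroblasts are also metabolically active cells, and their rates of growth, ribosome production and defence against oxidants respond to injury and to growth factors.

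Values are the log2 expression values that the authors deposited, and a group of values is given in the order of replicates 1, 2 and 3. A difference is the mean of CAF minus the mean of COF on that scale, given ± its moderated standard error with 3 arrays a side, so that 1 unit is a 2-fold change. Adjusted p-values are those of limma after Benjamini-Hochberg adjustment over all 12394 genes, and a gene is said to have risen or fallen only where this was under 0.05. By this rule 4309 genes passed, or 34.8% of those tested. Of all genes, 18.1% rose and 16.7% fell in CAF, and 3.94% rose and 4.37% fell by at least 2-fold. In 30.1% of genes every CAF array lay above every COF array, and in 26.5% every CAF array lay below. The median difference of all genes was 0.018. These shares are the background for the counts that follow, since with so many genes moving a gene list with 1 in 5 members up is ordinary. The rule by which genes were named, given with the processing below, required groups without overlap. Where this is stated of a gene named by that rule, it is a description and adds no support.

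Array medians lay between 6.89 and 7.02. Within COF, replicates 1 and 3 were closest, their values differing by an SD of 0.179 over all genes, while replicate 2 stood apart at 0.363 from replicate 1 and 0.263 from replicate 3. Within CAF, replicates 1 and 2 were closest at 0.145, against 0.225 and 0.205 for the other pairs. The counts of the gene lists are therefore also given with both of these pairs averaged and counted as 1 sample. This leaves 2 samples a side, and it brings the background to 6.5% higher and 8.06% lower. The 3' minus 5' difference of Actb, which tracks how intact RNA is, was 0.662 to 0.762 in COF and 0.592 to 0.611 in CAF, and its part in the results was not tested.

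Both populations carried fibroblast markers at a high level. The median of 15 measured markers was 13.49, 13.60 and 13.63 in COF and 13.27, 13.34 and 13.35 in CAF, and 0 of 15 rose or fell, although 3 rose and 4 fell on the 6 fibroblast arrays alone. TEC replicates 1 and 2 were unlike in these markers, with summed linear values of 26680 and 95900. Such a gap widens the spread by which a fibroblast gene is tested. A gene that did not pass may therefore still differ between COF and CAF. Traces of other cell types differed between the groups. Of 14 leukocyte markers 10 rose (3 with the closest arrays averaged; 6 without COF replicate 1 or 3), and their summed linear value was 614, 833 and 670 in COF and 1468, 1504 and 2967 in CAF, highest on CAF replicate 3, against 116700 and 88280 in TEC. Ptprc, the pan-leukocyte gene CD45, was at 5.19, 6.57 and 5.78 in COF and 7.04, 7.35 and 8.88 in CAF. Of 18 epithelial markers 12 rose and 1 fell (5 and 0 with the closest arrays averaged), with a summed value of 1496 to 2190 in COF and 2572 to 3696 in CAF, against 106900 and 97990 in CSC. Salivary acinar genes went the other way, with 5 of 11 lower and a sum of 2083 to 3683 in COF and 521 to 632 in CAF, none fell with the closest arrays averaged, and 1 to 3 fell without any 1 array except COF replicate 2. Endothelial, pericyte, Schwann cell, skeletal muscle and erythroid lists had 2, 4, 0, 0 and 0 members that rose and 3, 1, 3, 0 and 0 that fell. With the closest arrays averaged 1, 2, 0, 0 and 0 rose and 2, 0, 1, 0 and 0 fell. Without COF replicate 1 or 3 or CAF replicate 1 or 2 the pericyte rises numbered 2, and without COF replicate 1 or CAF replicate 1 or 2 the endothelial rises numbered 1. The summed value of the pericyte list was 1289 to 1390 in COF and 2193 to 2432 in CAF, with 1 marker at least 2-fold higher and 1 at least 2-fold lower. That of the Schwann cell list was 3149 to 3253 in COF and 1830 to 2056 in CAF. Of 12 adipocyte markers 4 fell (1 with the closest arrays averaged; 2 without COF replicate 1 or 3), from a sum of 19610 to 20670 in COF to 8443 to 11280 in CAF. The part of these cells in the results below was not tested. In bulk samples, fewer cells of a type and less RNA per cell cannot be told apart.

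**Figure D1:**
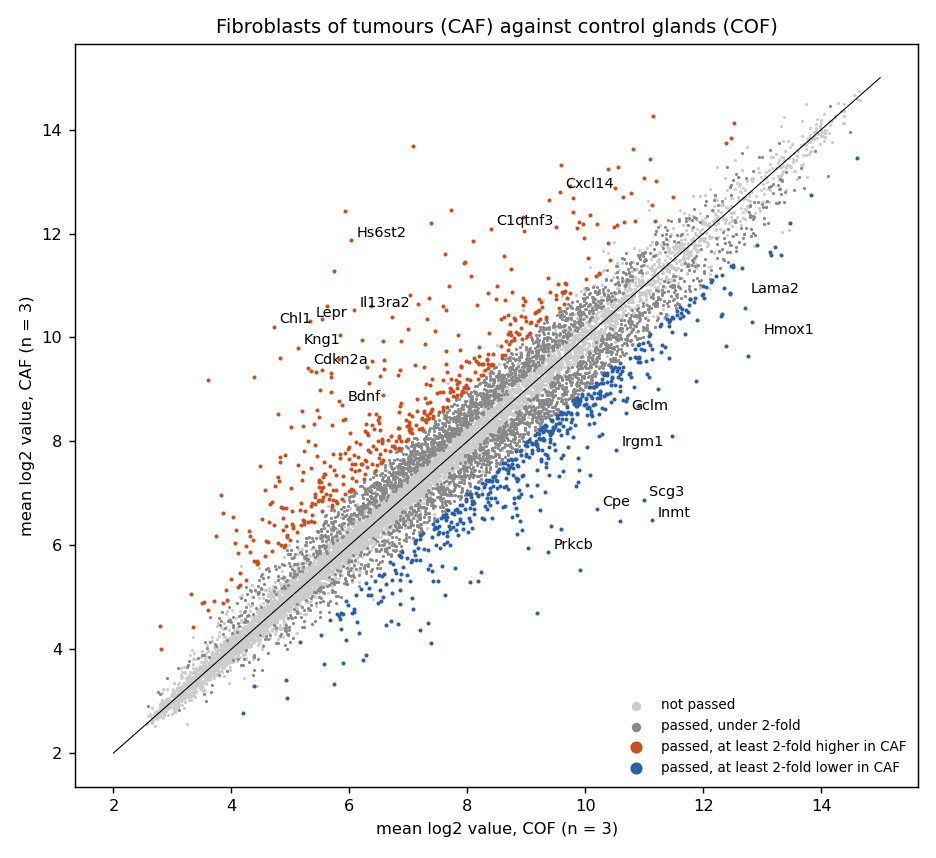
Mean log2 value of each of 12394 genes in COF (horizontal axis, n = 3) against CAF (vertical axis, n = 3), coloured by whether the gene passed the test and by at least 2-fold. Most genes lie along the line of equality, 488 rose and 542 fell by at least 2-fold, and the genes named in the plot are described in the text.

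Genes with large increases included a sulfotransferase, an adhesion molecule and a receptor. Hs6st2, which adds sulfate to the 6-O position of heparan sulfate, was at 5.06, 7.09 and 5.93 in COF and 11.92, 12.04 and 11.66 in CAF. The groups were far apart, although COF itself spread over 2 units, and the difference was 5.84 ± 0.66 (adjusted p = 2.48e-04), or 57.4-fold. Chl1, a cell adhesion molecule of the L1 family best known from nerve cells, stood at 4.06, 5.66 and 4.43 in COF and 10.21, 10.13 and 10.27 in CAF, a difference of 5.49 ± 0.60 (adjusted p = 2.15e-04). In both genes COF replicate 2 was the highest of the controls and still several units below every CAF array. Lepr, the leptin receptor, was near the lower quartile of the array in COF and well expressed in CAF, with 5.51, 5.25 and 5.27 in COF and 10.66, 10.55 and 9.76 in CAF and a difference of 4.98 ± 0.62 (adjusted p = 4.04e-04). With its probe sets averaged the Lepr difference was 2.30, which also passed.

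A ligand precursor and a receptor of the kinin system rose together. Kng1, the precursor of bradykinin, was at 5.36, 5.18 and 4.86 in COF and 9.80, 9.82 and 9.80 in CAF, a difference of 4.67 ± 0.33 (adjusted p = 3.10e-05), and of 3.11 with its probe sets averaged. Bdkrb1, the inducible kinin receptor, was at 5.75, 6.82 and 6.08 in COF and 10, 9.97 and 9.91 in CAF (3.74 ± 0.55, adjusted p = 9.26e-04). No array of one group reached into the other for either gene, which the rule for naming them required. Bdkrb2, the constitutive receptor, lay under the lower quartile of values on all 6 arrays and did not pass (0.12 ± 0.12, adjusted p = 0.519).

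Both receptors of interleukin-13 rose. Il13ra2, a decoy receptor that binds the cytokine without the usual signal, was at 6.03, 6.29 and 5.92 in COF and 10.52, 10.55 and 10.49 in CAF, a difference of 4.44 ± 0.50 (adjusted p = 2.38e-04). Il13ra1, the signalling chain, was at 8.95, 8.56 and 8.94 in COF and 10.35, 10.39 and 10.29 in CAF (1.53 ± 0.14, adjusted p = 1.10e-04). The replicates of CAF agreed within 0.1 for both, and neither was as high in CSC or TEC, where Il13ra2 averaged 6.03 and 7.68. Retnla and Chil1, secreted proteins usually tied to this cytokine's action on macrophages, also rose, by 4.21 ± 0.21 and 4.82 ± 0.23. Their levels in TEC, at means of 12.03 and 11.32, were above those in CAF, at 10.05 and 10.36. Leukocyte markers rose in the same arrays, and their part in these differences was not tested.

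Further large increases were in genes of hormone and insulin signalling. Dio2, the enzyme that activates thyroid hormone, was at 6.55, 7.55 and 6.99 in COF and 10.85, 10.93 and 10.68 in CAF (3.79 ± 0.35, adjusted p = 9.97e-05). Grb14, an adaptor that restrains the insulin receptor, was at 5.44, 5.37 and 5.50 in COF and 9.37, 9.52 and 9.11 in CAF (3.89 ± 0.47, adjusted p = 3.43e-04). Fgf23, known as a phosphate hormone of bone, was at 4.25, 5.28 and 5.51 in COF and 8.60, 8.23 and 8.002 in CAF (3.26 ± 0.30, adjusted p = 9.93e-05). The COF values of Grb14 and Fgf23 were close to the lower quartile, so these rises start from the dim end of the scale. C1qtnf3, a secreted protein of the C1q and TNF family, started from a measurable level, with 8.21, 8.51 and 8.48 in COF and 12.08, 12.20 and 11.99 in CAF (3.69 ± 0.62, adjusted p = 0.00189). Lmcd1, Anxa8, Sorcs2 and Parm1 rose by 3.85 ± 0.34, 3.77 ± 0.17, 3.54 ± 0.38 and 3.36 ± 0.27. Reg1, a secreted lectin of the family of Reg3g, rose by 3.41 ± 0.33, and its means in CSC and TEC, 5.31 and 6.73, lay below the CAF values. Lyz1, Ctss, Csn2, Csn3, S100a8, Saa1 and Gzmb were among the 40 greatest increases as well. They are genes of leukocytes, of milk-secreting cells or of the acute phase, and Gzmb was highest on CAF replicate 3, with 5.14, 6.59 and 5.36 in COF and 8.39, 9.17 and 10.38 in CAF, as was Ptprc, whose adjusted p was 0.0153, and 0.0516 to 0.0605 without COF replicate 1 or COF replicate 3. Lyz1 differed by 0.05 (adjusted p = 0.746) when probe sets that may bind related genes were left out.

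The greatest decreases included a set of genes for making and packing secreted peptides. Scg3, a granin that helps load secretory granules, was at 11.05, 10.85 and 11.08 in COF and 6.89, 6.95 and 6.79 in CAF, a difference of -4.12 ± 0.13 (adjusted p = 2.11e-06). Cpe, the carboxypeptidase that trims peptide hormones, was at 10.51, 9.62 and 10.48 in COF and 6.44, 6.52 and 7.11 in CAF (-3.51 ± 0.28, adjusted p = 5.25e-05), and differed by -2.01 with its probe sets averaged. Tac1, which encodes substance P, was at 10.995, 12.03 and 11.40 in COF and 7.65, 7.88 and 8.79 in CAF (-3.37 ± 0.39, adjusted p = 2.85e-04). All CAF arrays lay below all COF arrays for the 3 genes, with the smallest gap between groups in Tac1. Nmb (-1.74 ± 0.28), Edn1 (-1.60 ± 0.19) and Nmu (-0.68 ± 0.16), the precursors of neuromedin B, endothelin-1 and neuromedin U, fell too. Of the 49 measured peptide hormone and processing genes, 0 rose, 9 fell and 40 did not pass (0 and 6 with the closest arrays averaged). The share fallen, 18.4%, was near the 16.7% of all genes, and 0% rose against 18.1%. On the 6 fibroblast arrays alone 5 rose and 13 fell. Of the 49 members 17 lay under the lower quartile on all 6 of these arrays, where values are compressed and a change can be missed. The enkephalin precursor Penk did not pass (1.56 ± 0.57, adjusted p = 0.0644), but did when only the 6 arrays of COF and CAF were fitted (adjusted p = 7.76e-05).

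Other strong decreases were in signalling enzymes, matrix-associated proteins and a cytokine. Prkcb, protein kinase C beta, was at 9.14, 9.44 and 9.51 in COF and 5.52, 5.79 and 6.29 in CAF (-3.50 ± 0.23, adjusted p = 2.31e-05). Il17d, a cytokine of the interleukin-17 family, fell by 7.26-fold (-2.86 ± 0.10, adjusted p = 2.40e-06). Its probe set may bind related genes, and without such probe sets Il17d differed by -0.37 and did not pass (adjusted p = 0.0655). Sparcl1, a secreted matrix-associated glycoprotein, was at 12.91, 12.53 and 12.83 in COF and 9.50, 9.69 and 9.75 in CAF (-3.11 ± 0.22, adjusted p = 3.17e-05). The thrombospondin Thbs4 (-2.70 ± 0.22), the corneal-type proteoglycan Kera (-2.62 ± 0.21) and the adhesion molecule Cntn1 (-3.05 ± 0.28) fell with it. Apoe, the lipid carrier, was at 12.61, 12.16 and 12.39 in COF and 9.87, 9.71 and 9.92 in CAF (-2.55 ± 0.13, adjusted p = 1.07e-05). Sirt1, an NAD-dependent deacetylase, was at 10.999, 10.71 and 10.97 in COF and 8.77, 8.52 and 8.73 in CAF (-2.22 ± 0.14, adjusted p = 2.00e-05), with tight replicates on both sides.

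**Figure D2:**
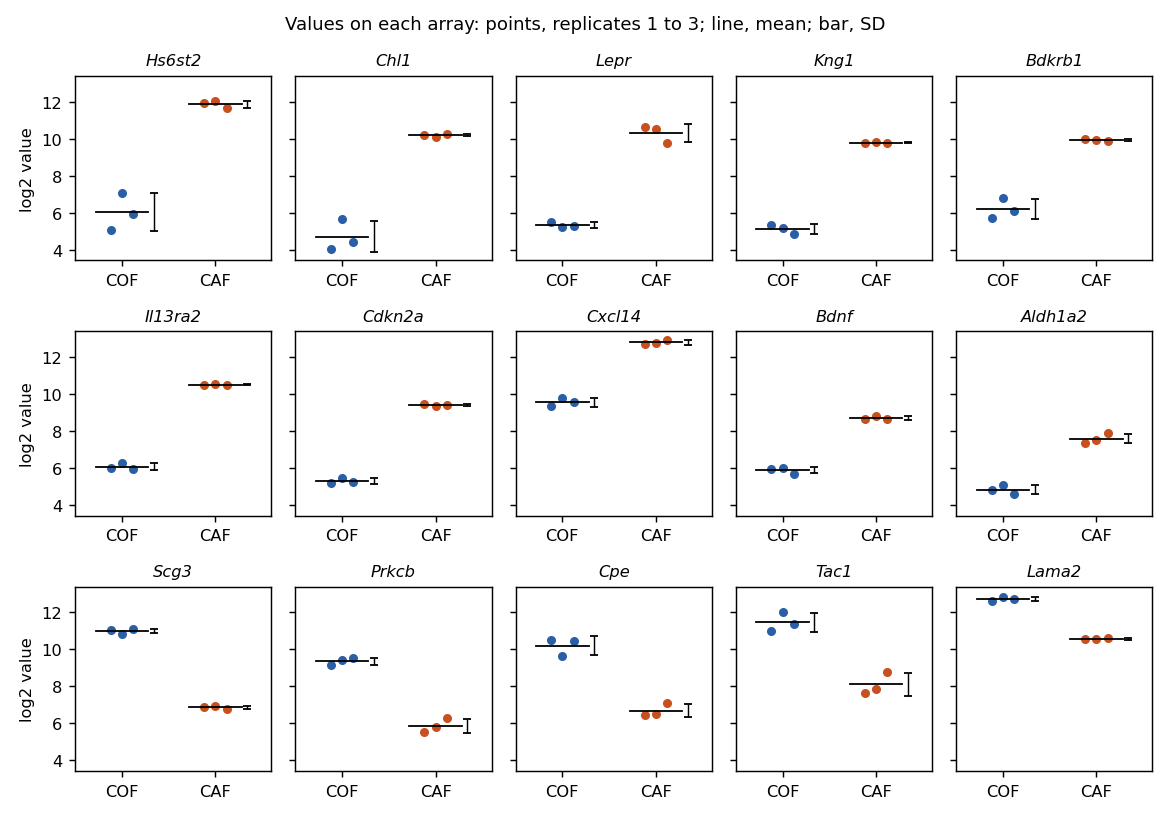
Log2 values (vertical axis) of 15 genes on each COF and CAF array, with points for replicates 1 to 3, a line for the mean and a bar for the SD. The CAF points of Kng1, Il13ra2 and Cdkn2a lie close together and above every COF point, and those of Scg3 and Lama2 lie below, while COF replicate 2 is the highest control for Hs6st2, Chl1 and Bdkrb1.

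Chemokines, the small attractants of leukocytes, rose more often than genes at large. Of the 33 measured chemokine ligands, 13 rose, 3 fell and 17 did not pass (6 and 1 with the closest arrays averaged), with a median difference of 0.24. Falls numbered 1 without CAF replicate 2. Cxcl14, a chemokine of many epithelia and of tumour stroma, was at 9.34, 9.81 and 9.55 in COF and 12.70, 12.76 and 12.94 in CAF (3.23 ± 0.45, adjusted p = 7.32e-04). Cxcl13, the attractant of B cells, was at 10.12, 9.62 and 9.94 in COF and 11.84, 12.08 and 12.74 in CAF (2.33 ± 0.38, adjusted p = 0.00169), highest on CAF replicate 3. Cxcl12, the ligand of Cxcr4, rose from an already high level (12.52, 12.21 and 12.44 in COF and 13.83, 13.74 and 13.68 in CAF, 1.36 ± 0.46, adjusted p = 0.0462), and its adjusted p was 0.071 in a fit blocked on the replicate number, 0.205 with the closest arrays averaged and 0.0938 to 0.118 without any 1 of the 6 arrays. The platelet-type chemokine Ppbp (1.99 ± 0.15) and the myeloid attractants Ccl9 (1.83 ± 0.18) and Ccl6 (1.55 ± 0.16) rose as well. In CSC or TEC 17 of the 33 members, Ccl9 and Ccl6 among them, exceeded their CAF level. Cxcl9, an interferon-induced attractant of T cells, fell by 2.86-fold (-1.52 ± 0.25, adjusted p = 0.00188). Ccl2, among the brightest genes on every array, was at 13.88, 13.56 and 13.86 in COF and 13.78, 13.76 and 13.74 in CAF and did not pass (adjusted p = 0.981). Of the neutrophil attractants, Cxcl5 was at 10.03, 11.20 and 10.46 in COF and 13.27, 13.31 and 13.27 in CAF (2.72 ± 0.57, adjusted p = 0.00572; adjusted p = 0.0724 with the closest arrays averaged). Cxcl1 stood near the top of the scale in both groups (14.41, 14.35 and 14.41 in COF and 14.48, 14.49 and 14.49 in CAF), where a rise can be missed, and did not pass.

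Some ligands of the interleukin-6 family rose, while Stat3 and some feedback inhibitors of cytokine signalling fell, and Socs3 did not pass. Of the 20 measured genes of the interleukin-6 family, its receptors and STAT3 targets, 4 rose, 8 fell and 8 did not pass (1 and 4 with the closest arrays averaged), with a median difference of -0.14. Rises numbered 2 without COF replicate 3, CAF replicate 1 or CAF replicate 2. The ligands Clcf1 (0.91 ± 0.12, adjusted p = 5.01e-04; 0.57 with its probe sets averaged) and Lif were higher, Lif at 8.71, 8.51 and 8.67 in COF and 10.23, 10.33 and 10.61 in CAF (1.76 ± 0.36, adjusted p = 0.00479; adjusted p = 0.0522 with the closest arrays averaged). Il6 itself was near the top of the scale, at 14.03, 13.95 and 14.005 in COF and 14.19, 14.18 and 14.21 in CAF, and did not pass (0.20 ± 0.36, adjusted p = 0.742). It passed on the 6 fibroblast arrays alone (adjusted p = 0.0374). On the receiving side Stat3, the transcription factor of this pathway, was at 12.07, 11.95 and 12.03 in COF and 11.19, 11.17 and 11.40 in CAF (-0.76 ± 0.11, adjusted p = 8.84e-04). The feedback inhibitors Cish (-1.11 ± 0.17, adjusted p = 0.00131), Socs2 (-0.75 ± 0.12, adjusted p = 0.00169) and Socs1 (-0.56 ± 0.095) fell as well. Socs3, the inhibitor most closely tied to interleukin-6, did not pass (-0.17 ± 0.11, adjusted p = 0.281), but its difference was -0.55 (adjusted p = 0.0176) without probe sets that may bind related genes.

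Complement genes, which encode proteins of the blood's lytic cascade, changed strongly in a few members. Of the 21 measured complement components and regulators, 5 rose, 3 fell and 13 did not pass (4 and 1 with the closest arrays averaged), with a median difference of 0.28. Cfb, the factor B of the alternative pathway, was at 9.73, 9.98 and 9.65 in COF and 12.73, 12.64 and 12.69 in CAF (2.90 ± 0.37, adjusted p = 4.55e-04). Cfi, the protease that inactivates C3b, was at 6.35, 6.84 and 6.38 in COF and 9.25, 9.10 and 9.40 in CAF (2.73 ± 0.28, adjusted p = 1.68e-04), and Masp1, a protease of the lectin pathway, rose by 2.49 ± 0.39 (adjusted p = 0.0014). The size for Masp1 depends on the probe set, with 1.59 from the mean of all and 0.53 without those that may bind related genes. Hc, which encodes complement component C5, was at 9.25, 9.26 and 9.20 in COF and 6.70, 6.62 and 6.72 in CAF (-2.56 ± 0.17, adjusted p = 2.38e-05), with no array near the other group. The transcripts of an activating factor and an inactivating one thus rose together, while that of a terminal component fell. Proteins were not measured.

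The genes of prostaglandin synthesis rose in part. Of the 23 measured prostaglandin synthesis and breakdown genes, 6 rose, 2 fell and 15 did not pass (4 and 2 with the closest arrays averaged), with a median difference of 0.16. Pla2g4a, which frees arachidonic acid, was at 9.20, 8.93 and 9.12 in COF and 10.02, 10.09 and 9.90 in CAF (0.92 ± 0.10, adjusted p = 2.60e-04). Ptgs2, the inducible cyclooxygenase that uses it, rose from a high level, with 12.70, 12.59 and 12.68 in COF and 13.51, 13.54 and 13.61 in CAF (0.89 ± 0.11, adjusted p = 3.19e-04). Receptors went both ways, as Ptgfr, the receptor of prostaglandin F, rose (2.13 ± 0.19, adjusted p = 9.14e-05; 1.29 with its probe sets averaged) and Ptger4, a receptor of prostaglandin E, fell (-1.04 ± 0.077, adjusted p = 3.86e-05). Pla2g7, the secreted enzyme that breaks down platelet-activating factor, was at 9.67, 11.62 and 10.49 in COF and 6.43, 6.22 and 6.77 in CAF (-4.12 ± 0.42, adjusted p = 1.48e-04), with COF spread over almost 2 units and still clear of CAF. Ptgr1, which inactivates prostaglandins and leukotrienes, rose by 0.98 ± 0.098 (adjusted p = 1.36e-04).

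Interferon-induced genes fell more often than they rose, whereas the immunoproteasome rose. Of the 30 measured interferon-induced genes, 4 rose, 9 fell and 17 did not pass (0 and 3 with the closest arrays averaged), with a median difference of -0.23. Rises numbered 2 without COF replicate 1, COF replicate 2 or COF replicate 3. Irgm1, a GTPase of defence within cells, was at 10.69, 10.19 and 10.71 in COF and 7.73, 7.87 and 7.91 in CAF (-2.69 ± 0.15, adjusted p = 1.22e-05). Irf1 (-1.41 ± 0.18, adjusted p = 4.16e-04) and Irf9 (-1.17 ± 0.17, adjusted p = 8.20e-04), transcription factors of the interferon response, fell with it. In each of these 3 genes COF replicate 2 was the lowest control. Of 13 genes of MHC class I and its peptide supply, 5 rose and 1 fell (4 and 0 with the closest arrays averaged). The inducible proteasome subunits Psmb8 (0.52 ± 0.091), Psmb9 (0.53 ± 0.087) and Psmb10 (0.55 ± 0.083) and the activator Psme1 (0.41 ± 0.076) rose by small amounts. B2m, the light chain of MHC class I, did not pass (-0.15 ± 0.086, adjusted p = 0.21). The peptide transporter Tap1 fell (-0.71 ± 0.14, adjusted p = 0.00379), with adjusted p = 0.061 with the closest arrays averaged and -0.20 (adjusted p = 0.138) with its probe sets averaged. In CSC or TEC 9 of 13 measured members of this list exceeded their CAF level, and leukocyte markers rose on the CAF arrays.

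Among factors that act on vessels the angiopoietins changed in both directions. Of the 26 measured angiogenic factors, 6 rose, 3 fell and 17 did not pass (5 and 2 with the closest arrays averaged), with a median difference of 0.08. Angpt1, the ligand that stabilises vessels through the receptor Tie2, was at 5.46, 5.32 and 5.27 in COF and 6.75, 6.48 and 6.17 in CAF (1.12 ± 0.14, adjusted p = 4.41e-04). Angpt4, a ligand of the same receptor, was at 5.38, 5.21 and 5.02 in COF and 8.64, 8.69 and 8.43 in CAF (3.39 ± 0.38, adjusted p = 2.56e-04). Angpt2, which opposes Angpt1 in most settings, was at 8.27, 9.33 and 8.68 in COF and 6.64, 6.67 and 6.33 in CAF (-2.21 ± 0.23, adjusted p = 1.69e-04). The arrays of the groups did not overlap for any of them, and COF replicate 2 was the highest for Angpt2. Pdgfa (1.19 ± 0.18, adjusted p = 0.00106) also rose. Vegfa was well expressed in both groups, at 11.12, 10.86 and 11.02 in COF and 10.83, 10.76 and 10.96 in CAF, and did not pass (adjusted p = 0.469). Endothelial markers had a summed linear value of 2971 to 3431 in COF and 2150 to 2325 in CAF, lower on every CAF array, with Kdr (-0.98 ± 0.12) and Plvap (-0.88 ± 0.11) lower. Their median went the other way, with 6.07, 6.36 and 6.27 in COF and 6.40, 6.42 and 6.39 in CAF. Of the 18 markers 2 rose, 3 fell and 13 did not pass, so the list had no single direction.

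Neurotrophic and retinoid genes each held a strong change in a ligand or in its synthesis. Bdnf, the brain-derived neurotrophic factor, was at 5.96, 5.99 and 5.69 in COF and 8.63, 8.82 and 8.68 in CAF (2.83 ± 0.29, adjusted p = 1.50e-04). Artn, a ligand of the GDNF family, rose from below the lower quartile in COF (0.96 ± 0.084, adjusted p = 7.97e-05), and Ngfr, the shared receptor of the neurotrophins, fell (-1.23 ± 0.23, adjusted p = 0.00338; -0.61 with its probe sets averaged). Of 16 members of this list 3 rose and 4 fell (2 and 1 with the closest arrays averaged). Falls numbered 2 without COF replicate 3 or CAF replicate 2. Retinoic acid is made from retinol in a pair of oxidation steps, and a gene of each step rose. Rdh10, of the first, was at 9.69, 10.21 and 9.70 in COF and 12.10, 12.14 and 12.06 in CAF (2.23 ± 0.29, adjusted p = 5.03e-04), and Aldh1a2, of the second, was at 4.83, 5.06 and 4.59 in COF and 7.38, 7.52 and 7.89 in CAF (2.77 ± 0.16, adjusted p = 1.64e-05). Aldh1a2 averaged below the lower quartile in COF and 7.24 in TEC. Aldh1a1, another enzyme of the second step, did not pass (-0.80 ± 0.36, adjusted p = 0.121), though it did as lower in CAF on the 6 fibroblast arrays alone (adjusted p = 0.00187). Rarb, a receptor and a target of retinoic acid, did not pass (-0.36 ± 0.17, adjusted p = 0.135), and of the 24 retinoid genes 3 rose and 2 fell (2 and 1 with the closest arrays averaged).

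In the insulin-like growth factor list 3 of 19 members rose and 3 fell (0 and 3 with the closest arrays averaged). Igf1 was at 11.17, 11.21 and 11.23 in COF and 13.002, 13.09 and 12.96 in CAF (1.81 ± 0.53, adjusted p = 0.0256). The groups were far apart for their own spread, but the adjusted p was 0.159 with the closest arrays averaged and 0.0579 to 0.0755 without any 1 of the 6 arrays, and 5.97e-06 on the 6 fibroblast arrays alone. Igfbp6, a binding protein, was at 13.10, 13.10 and 13.10 in COF and 12.25, 12.18 and 12.15 in CAF (-0.91 ± 0.14, adjusted p = 0.00129). Irs2, the docking protein below the insulin and IGF receptors, fell by 2.05-fold (-1.03 ± 0.16, adjusted p = 0.00134).

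Several brakes of the ERK pathway, which carries growth factor signals from receptor tyrosine kinases, were lower in CAF. Of the 13 measured ERK pathway feedback genes, 1 rose, 6 fell and 6 did not pass (1 and 2 with the closest arrays averaged), with a median difference of -0.09. Spry4 was at 7.79, 7.82 and 7.66 in COF and 6.27, 6.35 and 6.42 in CAF (-1.41 ± 0.087, adjusted p = 1.80e-05). Spred1 was at 10.62, 10.54 and 10.62 in COF and 9.31, 9.31 and 9.28 in CAF (-1.29 ± 0.10, adjusted p = 5.25e-05). Both encode inhibitors that act at Ras and Raf. Spry2 fell too (-0.95 ± 0.21, adjusted p = 0.00762; adjusted p = 0.0932 with the closest arrays averaged), and the ERK phosphatase Dusp6 did not pass (0.29 ± 0.14, adjusted p = 0.158). Ccnd1, the cyclin whose transcription ERK promotes, was the exception and rose (1.93 ± 0.19, adjusted p = 1.25e-04). Immediate-early genes, which sorting itself can induce, rose in 4 and fell in 7 of 29 members (1 and 3 with the closest arrays averaged). On the 6 fibroblast arrays alone 4 rose and 14 fell. Maff (-1.62 ± 0.16) and Egr2 (-1.04 ± 0.12) were among those that fell, and Fos lay near the top of the scale (14.26, 14.21 and 14.24 in COF and 14.24, 14.26 and 14.22 in CAF). Rises numbered 1 without COF replicate 1, COF replicate 3, CAF replicate 1 or CAF replicate 2. Of 19 NF-kB components and feedback genes 3 rose and 6 fell, none of them with the closest arrays averaged, and the feedback inhibitor Nfkbia did not pass (0.06 ± 0.084, adjusted p = 0.639).

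Of the genes of the circadian clock, most were lower in CAF. Of the 19 measured circadian clock genes, 0 rose, 11 fell and 8 did not pass (0 and 4 with the closest arrays averaged), with a median difference of -0.62. Falls numbered 7 without COF replicate 3. Cry1, a repressor of the loop, was at 9.34, 8.95 and 9.27 in COF and 7.79, 7.81 and 8.12 in CAF (-1.27 ± 0.16, adjusted p = 4.43e-04). Clock, a subunit of the activator, was at 9.72, 9.38 and 9.67 in COF and 8.88, 8.89 and 8.77 in CAF (-0.74 ± 0.10, adjusted p = 7.09e-04). Csnk1d, the kinase that marks Per proteins for breakdown, was at 11.69, 11.40 and 11.57 in COF and 10.52, 10.48 and 10.55 in CAF (-1.04 ± 0.10, adjusted p = 1.29e-04), and Rora, a nuclear receptor that drives Arntl, fell (-1.10 ± 0.19). Arntl, the partner of Clock, fell (-0.84 ± 0.20, adjusted p = 0.0102) but had an adjusted p of 0.119 with the closest arrays averaged. Per2 fell (-0.93 ± 0.25, adjusted p = 0.0178), with an adjusted p of 0.11 in that setting and of 0.0581 to 0.0683 without COF replicate 1, COF replicate 3 or CAF replicate 3. Genes of the activator and of repressors were both among those that fell, and the part of the time of day was not tested. Dbp, an output gene of the clock, differed widely among the CAF arrays, with 6.17, 6.14 and 6.02 in COF and 7.63, 7.20 and 5.38 in CAF. The sources used here do not give the time of day at which tissue was taken.

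Glucocorticoid-responsive genes fell in 8 and rose in 4 of 21 members (2 and 3 with the closest arrays averaged). The receptor gene Nr3c1 fell (-0.65 ± 0.16, adjusted p = 0.011; adjusted p = 0.078 with the closest arrays averaged). Klf15 (-1.12 ± 0.14) and Cdkn1c (-1.66 ± 0.23), which the hormone induces, fell, while Fkbp5 (0.94 ± 0.12) and Ddit4 (1.24 ± 0.26), which it also induces, rose. The list thus had no single direction. Of 30 nuclear receptor genes 1 rose and 6 fell (0 and 1 with the closest arrays averaged). Falls numbered 3 without COF replicate 1, COF replicate 3, CAF replicate 1 or CAF replicate 3.

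Patterning transcription factors, which record the position and lineage of mesenchymal cells, fell more often than they rose. Of the 66 measured mesenchymal patterning transcription factors, 4 rose, 15 fell and 47 did not pass (4 and 7 with the closest arrays averaged), with a median difference of -0.06. Tbx3, a T-box factor of mammary and limb development, was at 8.64, 8.69 and 8.62 in COF and 6.96, 7.16 and 7.31 in CAF (-1.51 ± 0.17, adjusted p = 2.29e-04; -0.64 with its probe sets averaged). Its relative Tbx2 fell to below the lower quartile in CAF (-1.62 ± 0.14, adjusted p = 7.66e-05). Sox11 (-1.55 ± 0.25), Hes1 (-1.09 ± 0.18) and Hey1 (-0.84 ± 0.13), the last pair Notch targets, fell as well. Runx1, a factor of blood and mesenchymal lineages, was at 7.99, 7.89 and 7.63 in COF and 10.21, 10.003 and 9.93 in CAF (2.21 ± 0.12, adjusted p = 1.11e-05; 1.35 with its probe sets averaged). Foxp1 (1.02 ± 0.14), the homeobox gene Barx2 (1.79 ± 0.29) and Wt1 (1.79 ± 0.34), a factor of mesothelium and kidney, rose too. Prrx1 (0.89 ± 0.55, adjusted p = 0.258) and Twist1 (-0.75 ± 0.38, adjusted p = 0.167), general fibroblast factors, did not pass, and passed on the 6 fibroblast arrays alone with opposite signs (adjusted p = 5.94e-04 and 0.00118). Of 31 Hox genes 25 did not pass. Hoxd8 (7.70, 7.87 and 7.73 in COF and 8.86, 8.83 and 8.93 in CAF; 1.11 ± 0.095) and Hoxa10 (0.98 ± 0.11) rose, and these were the 2 that rose with the closest arrays averaged. Rises numbered 2 without COF replicate 1, COF replicate 3, CAF replicate 1 or CAF replicate 2.

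**Figure D3:**
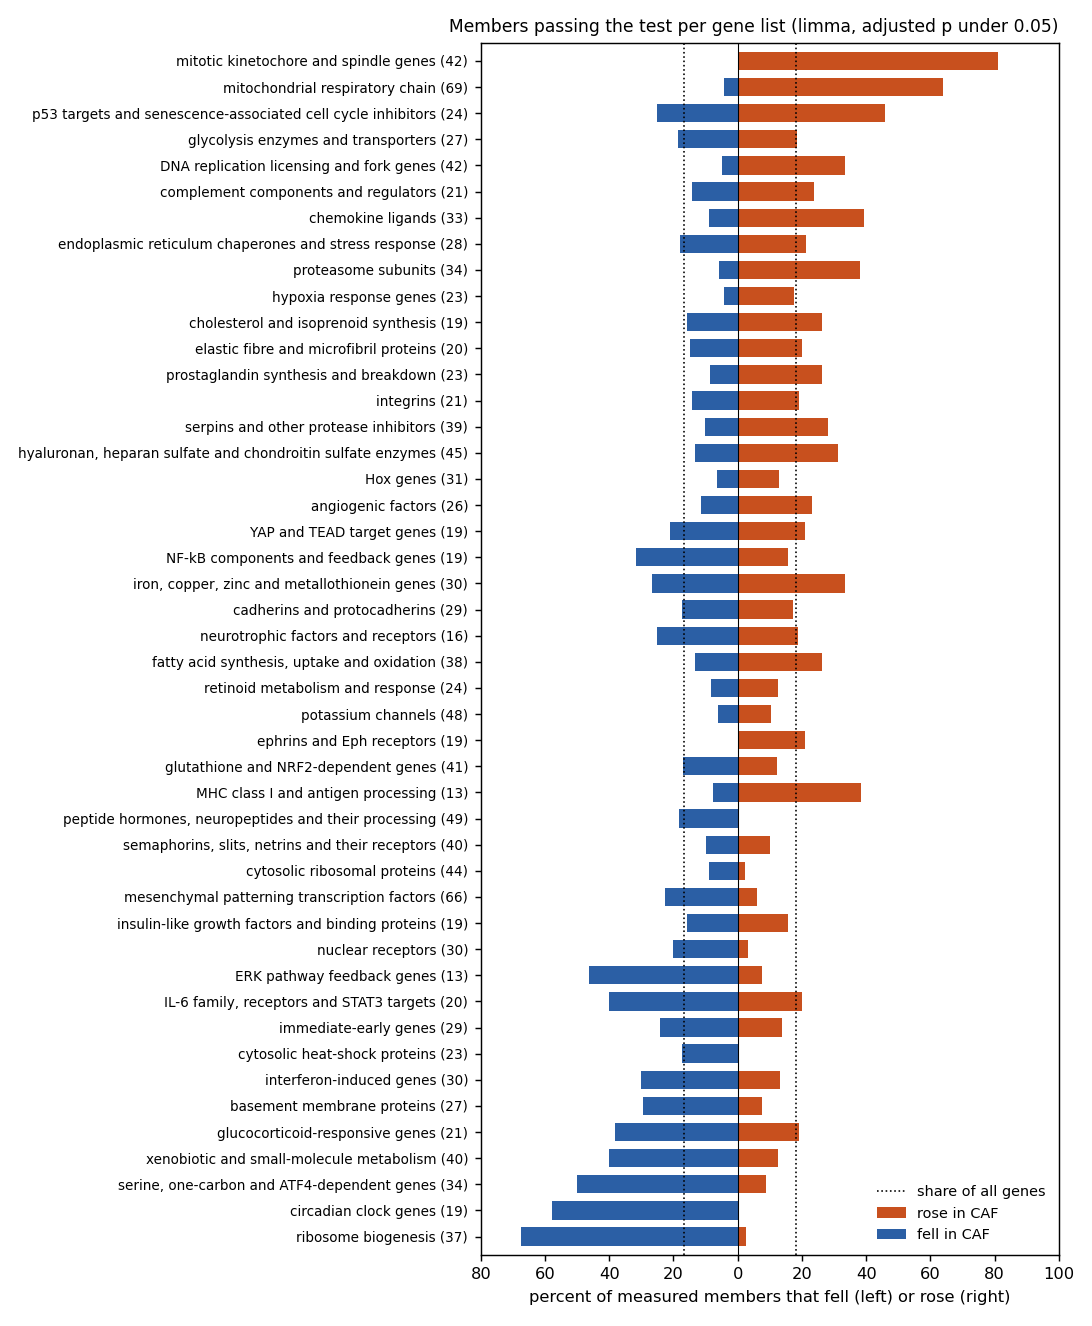
Percent of the measured members of each of 46 gene lists that rose (right) or fell (left) in CAF at an adjusted p under 0.05, sorted by the median difference, with the number of measured members in brackets and dotted lines at the share of all genes (18.1% up, 16.7% down). Mitotic genes (81.0% risen) and the respiratory chain (63.8%) stand at the top and ribosome biogenesis (67.6% fallen) and the clock (57.9% fallen) at the bottom.

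Genes of mitosis were higher in CAF, and they also varied among the control arrays. Of the 42 measured mitotic kinetochore and spindle genes, 34 rose, 0 fell and 8 did not pass (5 and 0 with the closest arrays averaged), with a median difference of 0.94. Rises numbered 18 without CAF replicate 2, 19 without COF replicate 3, 21 without COF replicate 1, and 22 without CAF replicate 3. Without COF replicate 2, which stood apart, 35 rose. Top2a, the topoisomerase that separates sister chromatids, was at 4.78, 7.57 and 6.47 in COF and 8.37, 8.38 and 8.25 in CAF (2.06 ± 0.56, adjusted p = 0.0187; adjusted p = 0.0866 with the closest arrays averaged and 0.0571 to 0.0585 without CAF replicate 1 or CAF replicate 2; a difference of 1.13 with its probe sets averaged and of 1.31 without COF replicate 1). Cdk1, the kinase that starts mitosis, was at 5.59, 7.59 and 6.31 in COF and 8.28, 8.41 and 8.39 in CAF (1.86 ± 0.43, adjusted p = 0.0088; adjusted p = 0.0809 with those arrays averaged). The CAF arrays of both genes agreed closely, COF replicate 1 was lowest and COF replicate 2 less than 1 unit below CAF. Kif22 (1.19 ± 0.23; 0.61 without probe sets that may bind related genes), Plk4 (1.19 ± 0.20), Prc1 (1.19 ± 0.25), Nuf2 (0.75 ± 0.13) and Kif18a (0.80 ± 0.11), all parts of the spindle, centriole or kinetochore, kept their call with the closest arrays averaged, and these were the 5 that did. In CSC or TEC 30 of the 42 members exceeded their CAF level, and leukocyte and epithelial markers rose on the CAF arrays. Their part in this result was not tested. Genes of DNA replication rose in 14 and fell in 2 of 42 members (4 and 0 with the closest arrays averaged). Rises numbered 8 without COF replicate 3, and 9 without COF replicate 1, CAF replicate 1 or CAF replicate 2. Gmnn (1.70 ± 0.35), which blocks relicensing, and Tk1 (1.37 ± 0.26), which salvages thymidine, were among the risen, and the helicase subunit Mcm2 rose by 0.54 ± 0.16 (adjusted p = 0.0254; 0.95 without probe sets that may bind related genes; adjusted p = 0.117 with the closest arrays averaged and 0.0783 to 0.0927 without COF replicate 1, COF replicate 3 or CAF replicate 3).

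Many mitotic promoters share a short element, the cell cycle homology region, through which they are held silent outside division. The letters TTTGAA were searched on both strands in the window from 250 bases before to 50 bases after each RefSeq gene start (GRCm38.p6). They were found in 67.7% of 31 windows of mitotic genes that rose, in 65.9% of 41 windows of the whole list and in 12.9% of the 12567 windows of the 9888 measured genes with a promoter sequence. Promoters were given for 29 of the 34 genes that rose and 36 of the 42 members, and a gene can have several windows. The promoters of Cdk1, Cdc20 and Kif22 are shown because they carry the element close to the start, and capitals mark each match. Where a gene had several windows, the one with the most matches is shown. Each sequence gives the 150 bases before the start, read 5′ to 3′ on the strand of the gene, and all of these genes are on the minus strand, at chr10:69352913-69353062, chr4:118437344-118437493 and chr7:127042421-127042570.
Cdk1: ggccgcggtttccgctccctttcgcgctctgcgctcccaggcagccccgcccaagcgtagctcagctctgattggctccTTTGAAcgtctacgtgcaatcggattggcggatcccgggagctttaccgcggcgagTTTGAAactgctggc
Cdc20: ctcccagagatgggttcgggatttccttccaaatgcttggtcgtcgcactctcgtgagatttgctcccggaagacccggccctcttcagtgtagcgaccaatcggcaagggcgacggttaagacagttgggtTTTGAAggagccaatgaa
Kif22: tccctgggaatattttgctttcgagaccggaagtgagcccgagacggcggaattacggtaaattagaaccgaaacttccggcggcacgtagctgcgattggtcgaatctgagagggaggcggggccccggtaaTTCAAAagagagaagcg
The matches lie 71 and 15 bases before the start in Cdk1, 18 bases in Cdc20 and 17 bases in Kif22, where the element is on the opposite strand. A match is a description of the sequence and not a site of binding. Cdc20, the activator of the anaphase ubiquitin ligase, was at 6.23, 7.88 and 6.92 in COF and 8.41, 8.62 and 8.56 in CAF (1.52 ± 0.33, adjusted p = 0.00701; adjusted p = 0.0611 with the closest arrays averaged; a difference of 0.86 with its probe sets averaged).

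Inhibitors of the cell cycle rose beside the mitotic genes. Cdkn2a, the locus that encodes p16 and p19 ARF, was at 5.18, 5.46 and 5.25 in COF and 9.47, 9.38 and 9.42 in CAF, a difference of 4.13 ± 0.24 (adjusted p = 1.63e-05) or 17.5-fold. Its neighbour Cdkn2b, which encodes p15, was at 6.90, 7.39 and 7.05 in COF and 9.34, 9.55 and 9.52 in CAF (2.35 ± 0.19, adjusted p = 5.25e-05). Replicates agreed closely, no arrays overlapped, and in CSC and TEC Cdkn2a averaged 5.27 and 5.997, below CAF. Which of the products of Cdkn2a the probe set reports was not tested. Cdkn1c, which encodes p57, went the other way (10.22, 10.90 and 10.33 in COF and 8.92, 8.79 and 8.76 in CAF; -1.66 ± 0.23, adjusted p = 8.15e-04). Cdkn1a, which encodes p21 and is the best known target of p53, did not pass (12.42, 11.83 and 12.29 in COF and 11.70, 11.49 and 11.77 in CAF; -0.53 ± 0.19, adjusted p = 0.0624). It passed as lower in CAF on the 6 arrays alone (adjusted p = 0.0292), with the replicate number as a block (0.00884) and without COF replicate 2 (0.0186). Of the 24 measured p53 targets and senescence-associated cell cycle inhibitors, 11 rose, 6 fell and 7 did not pass (7 and 4 with the closest arrays averaged), with a median difference of 0.39. Other p53 targets rose, among them Ccng1 (8.95, 9.04 and 8.997 in COF and 10.30, 10.36 and 10.29 in CAF; 1.32 ± 0.073), Trp53inp1 (1.63 ± 0.15; 0.99 with its probe sets averaged), Zmat3 (1.43 ± 0.20) and the death gene Pmaip1 (2.33 ± 0.27), which averaged 11.31 in TEC. The death gene Bbc3 (-1.27 ± 0.14), Gadd45b (-1.55 ± 0.12) and Sesn1 (-0.78 ± 0.091) fell. The list thus divided, and neither direction covered it.

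Genes of ribosome biogenesis fell more often than those of any other of the 46 lists. Of the 37 measured genes of ribosome assembly, 1 rose, 25 fell and 11 did not pass (0 and 20 with the closest arrays averaged), with a median difference of -0.67. Between 22 and 25 fell when any 1 of the 6 arrays was left out, and 27 on the 6 arrays alone. Nop58, a core protein of the particles that methylate ribosomal RNA, was at 12.37, 12.22 and 12.35 in COF and 10.32, 10.37 and 10.65 in CAF (-1.87 ± 0.12, adjusted p = 2.14e-05). Rrs1, an assembly factor of the large subunit, was at 11.08, 10.51 and 10.89 in COF and 9.01, 9.03 and 9.13 in CAF (-1.77 ± 0.14, adjusted p = 4.93e-05). Ddx21, a nucleolar helicase, was at 10.31, 9.98 and 10.18 in COF and 8.82, 8.61 and 8.74 in CAF (-1.43 ± 0.14, adjusted p = 1.09e-04). In all of them the lowest COF array lay at least 1 unit above the highest CAF array, and the control spread was small. Tsr1 (-1.65 ± 0.11), Rrp12 (-1.40 ± 0.12), Nolc1 (-1.35 ± 0.14; -0.84 with its probe sets averaged), Gnl3 (-1.24 ± 0.13), Nop56 (-1.21 ± 0.14), the methyltransferase Fbl (-0.98 ± 0.082) and nucleolin, Ncl (-0.74 ± 0.10), fell as well. The exception was Polr1e, a subunit of RNA polymerase I, with 0.46 ± 0.16 (adjusted p = 0.0493) and overlapping groups, and an adjusted p of 0.173 with the closest arrays averaged and 0.127 to 0.169 without COF replicate 1, COF replicate 3, CAF replicate 2 or CAF replicate 3. Myc, the transcription factor known to drive these genes, was at 12.10, 11.71 and 12.04 in COF and 10.93, 10.95 and 10.98 in CAF and did not pass (-0.999 ± 0.41, adjusted p = 0.0918), but passed as lower in CAF on the 6 arrays alone (adjusted p = 3.56e-04). Of 44 cytosolic ribosomal proteins 1 rose, 4 fell and 39 did not pass, with a median difference of -0.053 (0 and 2 with the closest arrays averaged). With all probe sets averaged 9 fell, and without the less specific probe set types 6. Falls numbered 2 without COF replicate 1, COF replicate 3, CAF replicate 1 or CAF replicate 2.

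Myc and its relatives bind the E-box, CACGTG, which reads the same on both strands. It was found in 26.1% of 23 windows of the ribosome biogenesis genes that fell (22 of 25 had a sequence), in 20.6% of 34 windows of the list and in 9.11% of all 12567 windows. The promoter of Nop2, a methyltransferase of ribosomal RNA that fell (-0.99 ± 0.098, adjusted p = 1.32e-04), is shown as an example with the match in capitals. It is on the plus strand at chr6:125131733-125131882, and the E-box lies 60 bases before the start.
Nop2: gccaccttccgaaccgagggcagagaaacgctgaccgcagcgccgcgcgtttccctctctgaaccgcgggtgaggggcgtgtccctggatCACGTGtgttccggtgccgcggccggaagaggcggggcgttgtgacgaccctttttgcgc
This is a description of the letters in the window, and 6 of the 23 windows of the genes that fell hold it.

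**Figure D4:**
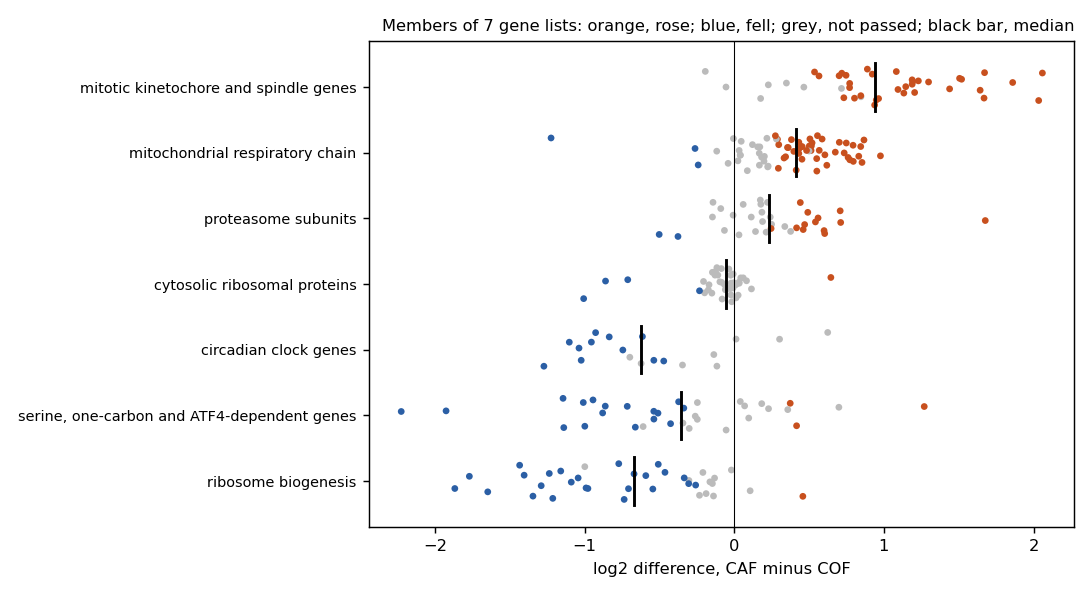
Log2 difference CAF minus COF (horizontal axis) of every measured member of 7 gene lists, with 1 point a gene, orange for genes that rose, blue for genes that fell, grey for those that did not pass, and a black bar at the median. Ribosome biogenesis lies left of 0 (median -0.67) and cytosolic ribosomal proteins have a median of -0.053, and mitotic genes lie to the right (median 0.94).

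Genes of the mitochondrial respiratory chain rose by small amounts. Of the 69 measured mitochondrial respiratory chain genes, 44 rose, 3 fell and 22 did not pass (10 and 1 with the closest arrays averaged), with a median difference of 0.41. Rises numbered 24 without COF replicate 1 or COF replicate 3, 27 without CAF replicate 2, and 28 without CAF replicate 3. Falls numbered 1 without any 1 of the 6 arrays. Ndufa8, a subunit of complex I, was at 9.06, 9.55 and 9.08 in COF and 10.20, 10.21 and 10.21 in CAF (0.98 ± 0.13, adjusted p = 5.41e-04). Sdhc, of complex II, was at 8.28, 8.63 and 8.40 in COF and 9.18, 9.15 and 9.19 in CAF (0.73 ± 0.1, adjusted p = 6.51e-04). Cox6b1, of complex IV, was at 11.09, 11.78 and 11.32 in COF and 12.22, 12.29 and 12.28 in CAF (0.87 ± 0.16, adjusted p = 0.00266). In each, COF replicate 2 was the control closest to CAF and still below it. Cox4i1 (-0.12 ± 0.075, adjusted p = 0.278) and Atp5a1 (0.03 ± 0.11, adjusted p = 0.861), core subunits of complex IV and of the ATP synthase, did not pass. Cox7c went against the list (-1.22 ± 0.10, adjusted p = 6.29e-05). The rise was thus not shared by all subunits. In CSC or TEC 47 of 69 members exceeded their CAF level. Proteasome genes rose in 13 and fell in 2 of 34 members (1 and 1 with the closest arrays averaged), with Psmd10 the largest (1.68 ± 0.14, adjusted p = 7.20e-05). Rises numbered 8 without COF replicate 1 or COF replicate 3. Psma1 rose by 0.44 ± 0.11 (adjusted p = 0.0153), but with its probe sets averaged its difference was -0.30 (adjusted p = 0.119), and its adjusted p was 0.118 with the closest arrays averaged and 0.055 to 0.0631 without COF replicate 1, COF replicate 3, CAF replicate 2 or CAF replicate 3.

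Many genes that supply amino acids or that the transcription factor Atf4 controls fell. Of the 34 measured serine, one-carbon and ATF4-dependent genes, 3 rose, 17 fell and 14 did not pass (1 and 7 with the closest arrays averaged), with a median difference of -0.36. Rises numbered 5 without COF replicate 2. Falls numbered 11 without CAF replicate 1. Gpt2, which links alanine to the citric acid cycle, was at 8.31, 9.50 and 8.78 in COF and 6.83, 6.92 and 7.06 in CAF (-1.93 ± 0.27, adjusted p = 7.19e-04). The amino acid carrier chain Slc3a2 was at 11.61, 11.96 and 11.71 in COF and 10.63, 10.58 and 10.63 in CAF (-1.14 ± 0.10, adjusted p = 7.97e-05), and its partner Slc7a5 (-0.86 ± 0.11) and the carriers Slc38a2 (-1.14 ± 0.14) and Slc1a5 (-0.88 ± 0.11) fell with it. Psat1 (-0.94 ± 0.18, adjusted p = 0.00377) and Phgdh (-1.01 ± 0.27, adjusted p = 0.0168), of serine synthesis, fell, Phgdh with an adjusted p of 0.072 with the closest arrays averaged and 0.0672 without CAF replicate 1. Atf4 itself fell by 1.45-fold (-0.54 ± 0.11, adjusted p = 0.00445; adjusted p = 0.0595 with the closest arrays averaged). Cth, of cysteine synthesis, rose against the list from below the lower quartile in COF (1.27 ± 0.24, adjusted p = 0.00348). Vldlr, a lipoprotein receptor under the control of Atf4, fell most (11.35, 11.11 and 11.27 in COF and 8.85, 9.03 and 9.17 in CAF; -2.23 ± 0.29, adjusted p = 5.08e-04).

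Glycolytic genes rose in 5 and fell in 5 of 27 members (3 and 1 with the closest arrays averaged), which is near the background. Rises numbered 3 without COF replicate 3, CAF replicate 2 or CAF replicate 3, and 8 without COF replicate 2. Falls numbered 1 without CAF replicate 1, CAF replicate 2 or CAF replicate 3, and 2 without COF replicate 1 or COF replicate 3. Pkm, pyruvate kinase, was at 8.80, 9.11 and 8.85 in COF and 9.85, 9.95 and 10.11 in CAF (1.05 ± 0.14, adjusted p = 5.72e-04), Tpi1 rose (0.97 ± 0.12) and Pfkp fell (-1.004 ± 0.15). The glucose transporter Slc2a1 (0.20 ± 0.18, adjusted p = 0.463) and lactate dehydrogenase Ldha (0.07 ± 0.079, adjusted p = 0.584) did not pass. Of 23 hypoxia response genes 4 rose and 1 fell (2 and 1 with the closest arrays averaged). Hif1a, the oxygen-regulated factor, rose (0.59 ± 0.11, adjusted p = 0.00363; adjusted p = 0.0525 with the closest arrays averaged), Bnip3 and Ddit4 rose by 1.08 ± 0.20 and 1.24 ± 0.26, and the histone demethylase Kdm3a fell (-1.15 ± 0.18, adjusted p = 0.00143). Fatty acid genes rose in 10 and fell in 5 of 38 (1 and 2 with the closest arrays averaged). Rises numbered 6 without COF replicate 3 or CAF replicate 2. Falls numbered 3 without COF replicate 1 or COF replicate 3. The fatty acid translocase Cd36 (-1.59 ± 0.31) and the desaturase Scd1 (-1.10 ± 0.11) fell and the mitochondrial transferase Cpt2 (1.22 ± 0.17; 0.74 with its probe sets averaged) rose. Cholesterol synthesis genes rose in 5 and fell in 3 of 19, and none passed with the closest arrays averaged. Rises numbered 2 without COF replicate 3, CAF replicate 1 or CAF replicate 2, and 3 without COF replicate 1 or CAF replicate 3.

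Some genes for glutathione and heme breakdown were lower in CAF, although the falls in the whole list (17.1%) were at the background of 16.7%. Hmox1, heme oxygenase, was at 12.86, 12.82 and 12.82 in COF and 10.48, 10.30 and 10.13 in CAF (-2.53 ± 0.22, adjusted p = 7.81e-05), or 5.77-fold lower. Glutathione is made by an enzyme of a catalytic and a modifier subunit, and both fell: Gclc was at 10.38, 9.96 and 10.10 in COF and 8.41, 8.48 and 8.15 in CAF (-1.80 ± 0.16, adjusted p = 9.58e-05) and Gclm at 10.90, 10.43 and 10.73 in COF and 8.66, 8.52 and 8.43 in CAF (-2.15 ± 0.23, adjusted p = 2.11e-04). No CAF array reached a COF array in any of them, and the gap was more than 1 unit. The thioredoxin reductase Txnrd1 (11.86, 11.36 and 11.75 in COF and 10.45, 10.32 and 10.47 in CAF; -1.24 ± 0.17, adjusted p = 5.78e-04) and the glutathione transferase Gstm1 (-1.84 ± 0.20, adjusted p = 2.01e-04) fell as well. These are known targets of the oxidant-sensing factor Nrf2, but others were not lower at this threshold. Nqo1 (-0.39 ± 0.14, adjusted p = 0.0559) and Srxn1 (0.20 ± 0.17, adjusted p = 0.413) did not pass, and Nqo1 passed as lower on the 6 arrays alone (adjusted p = 0.02) and without COF replicate 2 (0.0435). Glutathione reductase, Gsr, rose (1.08 ± 0.15, adjusted p = 8.15e-04), as did the membrane transferase Mgst3 (8.58, 9.09 and 8.59 in COF and 10.86, 10.99 and 10.77 in CAF; 2.12 ± 0.26, adjusted p = 4.02e-04; 1.23 with its probe sets averaged). Of the 41 measured glutathione and NRF2-dependent genes, 5 rose, 7 fell and 29 did not pass (3 and 6 with the closest arrays averaged), with a median difference of -0.03. Rises numbered 3 without CAF replicate 2. Falls numbered 11 without COF replicate 2.

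The antioxidant response element was searched as TGACNNNGC on both strands. It was found in 23.4% of 47 windows of the list (34 of 41 genes) and in 13.8% of all windows. Only 5 of the 7 members that fell had a promoter sequence, so a share among those is void. The promoters of Gclm and Txnrd1 are shown because both genes fell and both carry it, here on the opposite strand, so the capitals show the reverse complement. Both are on the plus strand, at chr3:122245407-122245556 and chr10:82859056-82859205, with the matches 134 and 92 bases before the start.
Gclm: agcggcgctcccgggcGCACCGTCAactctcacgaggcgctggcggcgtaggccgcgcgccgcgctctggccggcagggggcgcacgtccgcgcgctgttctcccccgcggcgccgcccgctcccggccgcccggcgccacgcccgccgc
Txnrd1: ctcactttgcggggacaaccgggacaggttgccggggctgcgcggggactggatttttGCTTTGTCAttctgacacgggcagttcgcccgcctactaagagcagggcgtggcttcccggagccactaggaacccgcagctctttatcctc
A match here too describes the letters in the window.

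Genes that handle iron and other metals changed in both directions. Of the 30 measured iron, copper, zinc and metallothionein genes, 10 rose, 8 fell and 12 did not pass (7 and 4 with the closest arrays averaged), with a median difference of 0.05. The only known exporter of iron, Slc40a1, was at 7.03, 7.27 and 7.07 in COF and 5.86, 5.73 and 5.55 in CAF (-1.41 ± 0.21, adjusted p = 0.00114). Heph, the copper enzyme that oxidises iron as it leaves the cell, was at 9.38, 9.44 and 9.35 in COF and 7.46, 7.53 and 7.08 in CAF (-2.04 ± 0.19, adjusted p = 9.58e-05). Cp, its soluble relative ceruloplasmin, went up, with 10.79, 10.13 and 10.59 in COF and 12.87, 12.80 and 12.98 in CAF (2.38 ± 0.25, adjusted p = 1.68e-04). The iron reductases Steap1 (6.06, 7.35 and 6.37 in COF and 9.47, 9.65 and 9.54 in CAF; 2.96 ± 0.45, adjusted p = 0.0012) and Steap4 (1.06 ± 0.092, adjusted p = 7.64e-05) rose, and so did Slc39a14, an importer of zinc and of free iron (9.62, 9.46 and 9.53 in COF and 11.08, 11.05 and 10.97 in CAF; 1.497 ± 0.09, adjusted p = 1.67e-05). The transcript of the iron exporter was lower and that of this importer higher, but the list as a whole had no single direction. Slc30a1, the zinc exporter, fell (-1.56 ± 0.14, adjusted p = 9.97e-05). Tfrc, the transferrin receptor, fell slightly (-0.46 ± 0.11, adjusted p = 0.0112), with an adjusted p of 0.137 with the closest arrays averaged, 0.0529 without CAF replicate 2 and 0.237 with its probe sets averaged. The iron-binding Ltf rose (6.95, 6.55 and 6.99 in COF and 8.84, 9.26 and 9.71 in CAF; 2.44 ± 0.23), but averaged 13.77 in CSC and 13.60 in TEC. The acute-phase genes Hp and Lcn2 are members of this list as well.

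**Figure D5:**
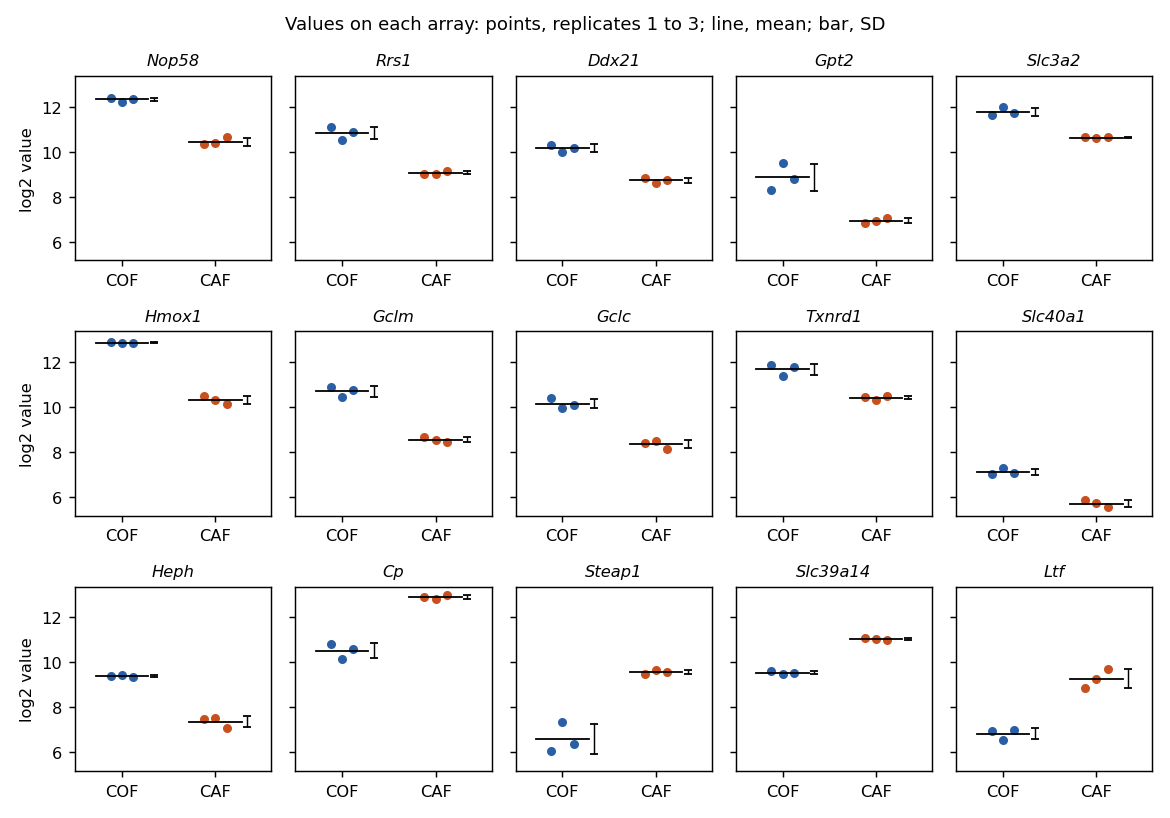
Log2 values (vertical axis) on each COF and CAF array of genes of ribosome biogenesis, amino acid supply, glutathione and metal handling, with points for replicates 1 to 3, a line for the mean and a bar for the SD. Nop58, Hmox1, Gclm and Heph lie lower on every CAF array, Cp, Steap1 and Slc39a14 lie higher, and the COF arrays of Gpt2 and Steap1 spread over more than 1 unit.

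Enzymes that modify drugs, sterols and other small molecules fell more often than genes at large. Of the 40 measured xenobiotic and small-molecule metabolism genes, 5 rose, 16 fell and 19 did not pass (2 and 11 with the closest arrays averaged), with a median difference of -0.26. Rises numbered 3 without any 1 of the 6 arrays. Inmt, an amine methyltransferase, was at 11.63, 10.41 and 11.37 in COF and 6.33, 6.75 and 6.34 in CAF (-4.66 ± 0.28, adjusted p = 1.63e-05). The carboxylesterase Ces1d was at 8.89, 7.49 and 8.31 in COF and 5.27, 5.55 and 5.62 in CAF (-2.76 ± 0.29, adjusted p = 1.86e-04), and Cyp27a1, the sterol hydroxylase, at 9.71, 7.78 and 9.31 in COF and 6.35, 6.38 and 6.13 in CAF (-2.65 ± 0.40, adjusted p = 0.00114). For these 3 genes COF replicate 2 was the lowest control, yet above every CAF array. Cyp39a1 (-1.84 ± 0.17), an oxysterol hydroxylase, and the aldehyde oxidase Aox1 (-1.79 ± 0.22) fell too. The aryl hydrocarbon receptor Ahr, which senses such compounds, rose (6.68, 7.03 and 6.87 in COF and 8.56, 8.79 and 8.72 in CAF; 1.83 ± 0.18, adjusted p = 1.18e-04; 1.004 with its probe sets averaged). Its target Cyp1b1 rose (1.57 ± 0.51, adjusted p = 0.0419), but its adjusted p was 0.12 with its probe sets averaged, 0.192 with the closest arrays averaged and 0.0723 to 0.117 without any 1 of the 6 arrays. Cyp7b1, another oxysterol hydroxylase, was at 9.52, 9.52 and 9.48 in COF and 11.97, 12.28 and 12.13 in CAF (2.62 ± 0.53, adjusted p = 0.00504; adjusted p = 0.061 with the closest arrays averaged), so the sterol enzymes did not move one way.

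Genes that build and sulfate the sugar chains of the cell surface and matrix rose more often than they fell, but not with the closest arrays averaged. Of the 45 measured enzymes and carriers of hyaluronan, heparan sulfate and chondroitin sulfate, 14 rose, 6 fell and 25 did not pass (3 and 4 with the closest arrays averaged), with a median difference of 0.10. Against the large rise of Hs6st2, its relative Hs6st1, which adds sulfate at the same position, fell (8.80, 8.71 and 8.70 in COF and 7.62, 7.64 and 7.70 in CAF; -1.09 ± 0.12, adjusted p = 2.26e-04). Hs3st1, which makes the sequence that binds antithrombin, rose (7.77, 8.03 and 7.80 in COF and 9.88, 9.77 and 9.64 in CAF; 1.90 ± 0.26, adjusted p = 6.94e-04). B4galt7, an early enzyme of the linker that starts these chains, rose by 1.21 ± 0.16, and the chondroitin sulfotransferases Chst15 (-0.80 ± 0.12) and Chst7 (-0.78 ± 0.13) fell. Gpc6, a core protein that carries heparan sulfate, fell (-1.32 ± 0.23, adjusted p = 0.00209). The hyaluronan synthase Has2 did not pass (0.55 ± 0.55, adjusted p = 0.513), but did as higher on the 6 arrays alone (adjusted p = 9.34e-04).

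Basement membrane genes, which encode the sheet under epithelia and around vessels and fat cells, fell in part. Of the 27 measured basement membrane proteins, 2 rose, 8 fell and 17 did not pass (1 and 5 with the closest arrays averaged), with a median difference of -0.25. Lama2, the alpha chain of the laminins of muscle and stroma, was at 12.60, 12.83 and 12.70 in COF and 10.54, 10.55 and 10.61 in CAF (-2.14 ± 0.32, adjusted p = 0.00106). Lamc3, a gamma chain, was at 7.27, 8.08 and 7.38 in COF and 5.57, 5.35 and 5.91 in CAF (-1.97 ± 0.22, adjusted p = 2.66e-04), and Col4a5, a chain of collagen IV, at 9.41, 8.87 and 9.28 in COF and 7.62, 7.68 and 7.05 in CAF (-1.74 ± 0.23, adjusted p = 5.38e-04). The related chains Col4a3 (-0.88 ± 0.15) and Col4a4 (-0.88 ± 0.12) fell too. Col4a1, the abundant chain, did not pass (13.64, 13.78 and 13.66 in COF and 13.20, 13.36 and 13.43 in CAF; -0.37 ± 0.48, adjusted p = 0.63), though it passed as lower on the 6 arrays alone (adjusted p = 0.0099). Egfl6, a secreted protein deposited near basement membranes, rose from below the lower quartile in COF (4.88, 4.72 and 4.83 in COF and 7.54, 7.68 and 6.48 in CAF; 2.42 ± 0.28, adjusted p = 2.87e-04). Among elastic fibre genes 4 of 20 rose and 3 fell (2 and 1 with the closest arrays averaged). The largest rise was that of Ltbp2, at 5.40, 6.89 and 5.48 in COF and 12.47, 12.39 and 12.43 in CAF. Its difference was 6.51 ± 0.61 (adjusted p = 1.04e-04, and 0.00628 with the closest arrays averaged). Ltbp4 was lower (-1.30 ± 0.23, adjusted p = 0.00233). Fbn2, the fibrillin of developing tissue, was at 6.83, 8.65 and 7.59 in COF and 10.95, 11.12 and 10.90 in CAF (3.30 ± 0.71, adjusted p = 0.00637, and 0.077 with the closest arrays averaged). Elastin, Eln, did not pass (-0.44 ± 0.44, adjusted p = 0.512, and 0.0229 on the 6 arrays alone). Falls numbered 1 without COF replicate 1, COF replicate 3, CAF replicate 1, CAF replicate 2 or CAF replicate 3.

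Cadherins, which hold cells to each other, changed in both directions. Of the 29 measured cadherins and protocadherins, 5 rose, 5 fell and 19 did not pass (2 and 5 with the closest arrays averaged), with a median difference of 0.04. Rises numbered 3 without COF replicate 1, COF replicate 3 or CAF replicate 3. N-cadherin, Cdh2, was at 5.77, 6.04 and 5.95 in COF and 8.45, 8.52 and 8.31 in CAF (2.50 ± 0.43, adjusted p = 0.00224). Cdh13, a cadherin held by a lipid anchor, was at 6.96, 6.92 and 6.76 in COF and 8.68, 8.67 and 8.88 in CAF (1.86 ± 0.15, adjusted p = 6.61e-05). Pcdh18, a protocadherin, was at 9.34, 9.29 and 9.31 in COF and 7.02, 7.03 and 7.01 in CAF (-2.29 ± 0.11, adjusted p = 7.61e-06), with replicates that agreed within 0.1. Cdh9 (-1.91 ± 0.35), Pcdh8 (-1.76 ± 0.24) and Cdh17 (-1.65 ± 0.11) fell as well. Cdh11, the cadherin most typical of fibroblasts, did not pass (0.63 ± 0.49, adjusted p = 0.374; adjusted p = 0.00438 on the 6 arrays alone). Of 21 integrins 4 rose and 3 fell (2 and 3 with the closest arrays averaged). Falls numbered 5 without COF replicate 2. Itga8, a partner of the shared beta chain, fell to below the lower quartile (6.33, 6.02 and 6.36 in COF and 4.13, 3.54 and 3.72 in CAF; -2.44 ± 0.34, adjusted p = 7.16e-04), Itga7, a laminin receptor, fell (-1.07 ± 0.13) and Itga9 rose (0.78 ± 0.11; 0.50 with its probe sets averaged). Itgb1, the shared beta chain, did not pass (0.17 ± 0.12, adjusted p = 0.304), and the leukocyte chain Itgb2 rose (1.24 ± 0.18) with the other leukocyte markers.

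Protease inhibitors rose in several members. Of the 39 measured serpins and other protease inhibitors, 11 rose, 4 fell and 24 did not pass (6 and 0 with the closest arrays averaged), with a median difference of 0.11. Falls numbered 2 without COF replicate 1, COF replicate 3, CAF replicate 1, CAF replicate 2 or CAF replicate 3. Slpi, the secretory leukocyte inhibitor, was at 7.70, 8.73 and 8.04 in COF and 10.55, 10.59 and 10.74 in CAF (2.47 ± 0.23, adjusted p = 1.07e-04), and Wfdc18, of the same fold, rose by 2.89 ± 0.29. Both were higher in CSC and TEC, at means of 11.31 and 13.84 for Slpi, and epithelial and leukocyte markers rose in the same arrays. Serpinb6b was at 5.74, 6.93 and 6.31 in COF and 8.86, 9.16 and 9.37 in CAF (2.80 ± 0.27, adjusted p = 1.20e-04), and Serpinb9, an inhibitor of granzyme B, rose by 1.32 ± 0.22. Among guidance cues, 4 rose and 4 fell of 40 semaphorins, slits, netrins and receptors (2 and 1 with the closest arrays averaged). Rises numbered 2 without CAF replicate 2. Of 19 ephrins and Eph receptors 4 rose and 0 fell (1 and 0 with the closest arrays averaged). For ephrins and Eph receptors, 1 or 2 rose without any 1 of the 6 arrays except COF replicate 2. Sema5a fell (-1.38 ± 0.16; -0.86 with its probe sets averaged). Of 48 potassium channels 5 rose and 3 fell (2 and 0 with the closest arrays averaged), the largest rises being Kcnj15 (1.65 ± 0.24) and Kcnn4 (0.92 ± 0.14). Rises numbered 3 without COF replicate 3, CAF replicate 1 or CAF replicate 2. Falls numbered 1 without COF replicate 1, CAF replicate 1 or CAF replicate 2. YAP and TEAD target genes rose in 4 and fell in 4 of 19 (2 and 3 with the closest arrays averaged). Rises numbered 1 without COF replicate 3 or CAF replicate 1, and 2 without COF replicate 1, CAF replicate 2 or CAF replicate 3. Gadd45b, Fjx1 (-1.12 ± 0.11) and the tissue factor gene F3 (-1.04 ± 0.17) fell, Ajuba (0.94 ± 0.11) rose, and Ccn2 rose by 1.37 ± 0.36 (adjusted p = 0.0162), with an adjusted p of 0.134 with the closest arrays averaged and 0.0518 to 0.0569 without COF replicate 1, COF replicate 3, CAF replicate 1 or CAF replicate 2. Endoplasmic reticulum chaperones rose in 6 and fell in 5 of 28, none of them with the closest arrays averaged, and Hspa5 did not pass (-0.27 ± 0.11, adjusted p = 0.0876). Rises numbered 0 without COF replicate 1, COF replicate 3, CAF replicate 1 or CAF replicate 2, and 1 without CAF replicate 3. Falls numbered 2 without COF replicate 1 or CAF replicate 2, and 3 without COF replicate 3. Of 23 cytosolic heat-shock proteins 0 rose and 4 fell (0 and 1 with the closest arrays averaged), with Hspa2 lowest (-1.28 ± 0.077, adjusted p = 1.67e-05), and Hspa1a, which sorting can induce, did not pass (-0.24 ± 0.31, adjusted p = 0.618). Falls numbered 2 without COF replicate 1, COF replicate 3, CAF replicate 1 or CAF replicate 2.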

How the data were processed

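Gene expression was measured on Affymetrix mouse arrays from RNA of sorted cells, about 100 ng a sample per the labels' protocols. The log2 values used are those the authors deposited, and RMA is named in the submitters' processing notes, with no version given. RMA corrects background and forces the arrays to one distribution, so a shift of most genes in one direction would be removed, and values of dim genes are compressed. Of 22690 probe sets 20393 carried 1 gene symbol, 691 several and 1606 none, and 12370 of the 12394 genes matched RefSeq.

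A linear model with limma 3.58.1 in R 4.3.3 was fitted to all 10 arrays, and CAF minus COF was tested with moderated statistics, two-sided, with Benjamini-Hochberg adjustment over all genes. A gene was called at an adjusted p under 0.05. With 3 arrays a group, their number limits precision. The alternatives were the 6 arrays alone, the replicate number as a block, another variance prior, no dim genes, other probe set rules and other scaling. Further ones were near-identical arrays averaged, a stricter threshold, each array left out, and no genes higher in CSC or TEC. For the last, CSC and TEC were compared with CAF and not with COF.

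The members, the 46 gene lists (1370 genes measured) and the 10 marker lists were chosen with earlier results of these data known. Genes were named if they were among the 40 greatest increases or decreases, or the 6 members of a list with the smallest adjusted p, that did not overlap between groups and kept their call with near-identical arrays averaged and without any 1 array, or if they define a list's role. Barx2, Bdkrb2, Cdc20, Cdk1, Cox6b1, Cp, Cth, Cxcl1, Cxcl5, Cyp7b1, Dbp, Fbn2, Gnl3, Gpc6, Gsr, Hes1, Il13ra1, Kdr, Lif, Ltf, Nolc1, Nop2, Nop56, Plvap, Pmaip1, Polr1e, Psat1, Ptprc, Sesn1, Slc40a1, Srxn1, Steap1, Wt1 and Zmat3 fall outside this rule and were chosen after their values were seen. Promoter sequences are from RefSeq (GRCm38.p6).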

Additional observations from a re-analysis of the deposited data

How the results depend on the processing

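The number of genes passing the test was 4309, of which 2238 were higher and 2071 lower in CAF. With the closest arrays averaged it was 1805 (806 higher and 999 lower), and at an adjusted p under 0.01 it was 2638 (1285 and 1353). Without genes whose level in CSC or TEC exceeded their CAF level, 7208 genes were left to test. Of these 2245 passed (1258 higher and 987 lower), with 304 at least 2-fold higher and 257 at least 2-fold lower. COF was not part of this choice, so a gene low in CAF is more readily left out. In this setting 13.7% of genes fell, against 16.7% of all genes, and 17.5% rose, against 18.1%. On the 6 fibroblast arrays alone 5686 genes passed. Leaving out 1 array gave 2980 genes without COF replicate 3 to 4316 without COF replicate 2, with 1458 (without COF replicate 3) to 2230 higher, 1502 to 2086 lower, 389 to 581 at least 2-fold higher and 476 to 632 at least 2-fold lower. Fewer samples or fewer genes tested are part of these alternatives by construction. One named gene changed sign, Psma1, with -0.30 from the mean of all probe sets; the cause was not tested. The arrays of both groups carry replicate numbers 1 to 3. Deviations of same-numbered arrays correlated at 0.127, 0.00632 and -0.0824, and those of the other pairings at -0.161 to 0.125. With 3 arrays a group this cannot show whether same-numbered samples were handled together. With the replicate number as a block 3947 genes passed (2047 higher and 1900 lower).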
